A study of Mus musculus with 10 samples.

Results

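The 2 mature arms of the mouse hairpin miR-378a, miR-378a-3p and miR-378a-5p, were followed in small extracellular vesicles (sEV). They were taken by name and are 2 of the 679 miRNAs listed for brown adipose tissue (BAT) vesicles and 2 of the 436 listed for plasma vesicles, out of 721 miRNAs in all. Their sequence relatives miR-378b, miR-378c and miR-378d are listed in both sources and were followed beside them. The vesicles came from C57BL/6J mice in 4 groups: Exe BAT (3 libraries), Sed BAT (3), Exe plasma (2) and Sed plasma (2). Exe stands for exercised mice and Sed is read as the untrained group, since the series sets vesicles before exercise against those after it. The labels attach 1 schedule, 2 sessions of 90 min a day over 4 weeks, to all 10 libraries, Sed ones included. Age and sex are not given, and nothing says whether replicates are separate mice, pooled mice or repeat libraries, so the p-values speak only of how far these libraries scatter.

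A miRNA hairpin is cut into 2 arms, 5p and 3p, and usually 1 of them is kept by the silencing complex while the other is mostly lost. The miR-378a hairpin lies inside the gene of PGC-1β (Ppargc1b), a coactivator that raises mitochondrial number and fat oxidation, and is made together with it. In mice the 3p arm is known to repress Crat, a mitochondrial enzyme of fatty acid handling, and Pde1b, a phosphodiesterase that limits brown fat growth, and the 5p arm represses Med13, a mediator subunit. The hairpin is abundant in tissues rich in mitochondria, among them brown fat, heart and skeletal muscle.

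The mature sequences of the relatives are shown because near-identical copies decide whether reads can be told apart. They are from RefSeq (GRCm38.p6), written 5′ to 3′, with the seed (bases 2 to 8, which pair with targets) in capitals.
miR-378b: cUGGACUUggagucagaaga
miR-378c: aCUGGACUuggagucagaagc
miR-378d: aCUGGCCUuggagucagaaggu
Mature miR-378b is at chr11:88352839-88352858 (plus strand), within an intron of Msi2 but on its opposite strand. Mature miR-378c is at chr14:46954905-46954925 (minus strand), in an intron of Samd4 on its opposite strand, and miR-378d is at chr10:126710355-126710376 (minus strand), outside any annotated gene. Counted from 1 at the 5′ end of miR-378c, miR-378b begins 1 base later, matches it in 19 of 20 aligned bases and differs by C21A. Against miR-378d, 19 of 21 aligned bases match, and the differences are A6C, within the seed, and C21G. The 3 seeds therefore differ: UGGACUU for miR-378b, CUGGACU for miR-378c and CUGGCCU for miR-378d. Read counts of such close copies are uncertain, because the rule by which reads were shared among them is not known here.

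In the GENCODE M21 annotation (GRCm38) Mir378a is 66 bases long, on the minus strand of chromosome 18, in intron 1 of the same-strand Ppargc1b transcripts that span it, 2500 to 2531 bases from their starts. A miRNA gene on the other strand, Gm25301, overlaps it there, and whether counting took strand into account is not given in the sources used here.

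Libraries held 104064 to 172279 miRNA reads in BAT and 1209116 to 1798169 in plasma, with 420 to 470 and 197 to 296 miRNAs detected. For BAT the deposited scaled values (RPM) imply a library total, though what it counts is not named. In replicates 1 to 3 miRNA reads were 0.616%, 0.818% and 0.904% of it in Exe BAT, against 0.830%, 0.492% and 0.565% in Sed BAT. Sed replicate 2 was lowest, with Sed replicate 3 next. Whether this share bears on the miR-378a values was not tested. The BAT library Sed replicate 2 stood apart: over 75 miRNAs with a mean of at least 100 reads, its median absolute departure from the other BAT libraries was 0.57 on the log2 scale, against 0.31 to 0.43 in the others. In plasma, Sed replicate 2 carried 21.4 reads per unit of the table's second whole-number value, which never exceeds the read count, against 1.41 to 3.31 in the other plasma libraries. As a check of the tissue, miR-193b-3p, a miRNA enriched in brown fat, had 2793, 3246 and 3312 reads in Exe BAT and 996, 1696 and 1133 in Sed BAT, and none in Exe plasma, against 13 and 37 in Sed plasma.

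In BAT vesicles miR-378a-3p was the leading miRNA of every library except Sed replicate 2. It had 31590, 33877 and 35733 reads in Exe BAT replicates 1 to 3, against 28351, 3804 and 24801 in Sed BAT replicates 1 to 3. As shares of miRNA reads these were 27.1%, 21.3% and 20.7% in Exe and 16.7%, 3.66% and 21.4% in Sed. The groups overlapped, since Sed replicate 3 lay above Exe replicates 2 and 3, and Sed replicate 2 ranked 10th in its own library for this miRNA. Counting error was small beside these gaps, with an exact 95% interval of 3.54% to 3.77% for Sed replicate 2.

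Means were 23.1% ± 3.51 in Exe BAT and 13.9% ± 9.19 in Sed BAT (SD, n = 3 each). The difference of 9.14 percentage points had an exact permutation p of 0.3 (two-sided, where 0.1 is the smallest possible). Without Sed replicate 2 it was 4.00 points (exact p = 0.6), against a Sed mean of 19.1% ± 3.27 (n = 2). In edgeR's quasi-likelihood test the log2 fold change (Exe over Sed) was 0.73 ± 0.62 (SE, adjusted p = 0.414). Without Sed replicate 2 it was 0.31 ± 0.28 (adjusted p = 0.431), and with relatives summed in, 0.73. Next in rank came miR-22-3p, an abundant miRNA of muscle and fat, at 14.0% ± 0.83 in Exe and 10.4% ± 4.07 in Sed, then the endothelial miR-126a-3p at 6.76% ± 1.78 in Exe and 8.11% ± 2.17 in Sed (SD, n = 3). In Exe the range of miR-378a-3p (20.7% to 27.1%) lay above that of miR-22-3p (13.1% to 14.8%), while in Sed the 2 ranges overlapped.

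**Figure D1:**
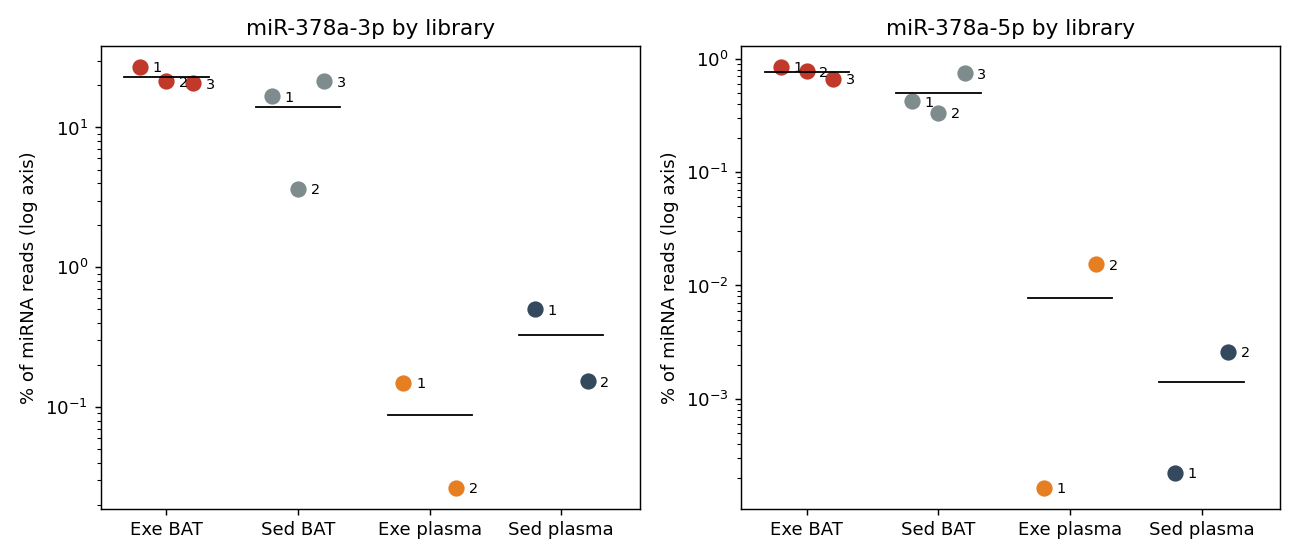
Share of miRNA reads (%, log axes) taken by miR-378a-3p (left) and miR-378a-5p (right) in each library, with replicate numbers beside the points and group means as lines. BAT libraries lie above plasma libraries for both arms, Sed BAT replicate 2 lies low for miR-378a-3p (3.66%), and plasma replicates of 1 group are far apart for miR-378a-5p.

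The minor arm miR-378a-5p had 983, 1228 and 1146 reads in Exe BAT, against 712, 346 and 858 in Sed BAT. Its shares of miRNA reads were 0.843%, 0.773% and 0.665% in Exe, against 0.42%, 0.332% and 0.739% in Sed. Again Sed replicate 3 fell within the Exe range and Sed replicate 2 was lowest. By mean share it ranked 28th in Exe and 35th in Sed. The log2 fold change was 0.67 ± 0.35 (edgeR, SE, adjusted p = 0.186), 0.42 ± 0.26 without Sed replicate 2 (adjusted p = 0.207) and 1.20 ± 0.29 without Sed replicate 3 (adjusted p = 0.0283), the only library whose removal gave a call. Neither arm passed the threshold of an adjusted p under 0.05 in the full fit, in which 22.6% of the 199 tested miRNAs passed (9.55% higher and 13.1% lower in Exe). Groups did not overlap for 44.2% of the tested miRNAs, and these arms were not among them. Scaling left both values above 0: miR-378a-3p ran from 0.73 to 0.93 and miR-378a-5p from 0.61 to 0.92 with upper-quartile factors, with library size alone and with totals back-calculated from RPM, and these scalings moved the median of all miRNAs by 0.14, -0.13 and 0.19. In bulk vesicle RNA, fewer vesicles of a cell type and less miRNA per vesicle cannot be told apart.

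The ratio of the arms within a library needs no scaling between libraries. The 5p arm made up 3.02%, 3.50% and 3.11% of miR-378a reads in Exe BAT, against 2.45%, 8.34% and 3.34% in Sed BAT. Sed replicate 2 was the high one (exact 95% interval 7.51% to 9.22%), with 11.0 reads of the 3p arm per 5p read, against 27.6 to 39.8 in the other BAT libraries. Its lower miR-378a-3p share therefore came with a smaller drop of the 5p arm: on the log2 CPM scale it lay 2.98 below the median of the other BAT libraries for miR-378a-3p and 1.59 below for miR-378a-5p. Mean 5p shares were 3.21% ± 0.255 in Exe and 4.71% ± 3.17 in Sed (SD, n = 3 each). The difference of -1.50 points gave a two-sided exact permutation p of 0.8, and without Sed replicate 2 it was 0.31 points (exact p = 0.5).

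Other hairpins were also shifted in that library. Of 18 hairpins with at least 10 reads of each arm in every BAT library, miR-378a had the 3rd largest shift of its log2 arm ratio (1.50), after miR-22 (2.18) and miR-423 (1.65), and the median size was 0.73. Summed over a group, the arm share was not extreme. By minor-arm share, miR-378a ranked 54th from the lowest of 86 hairpins with at least 100 reads in Exe BAT (median 1.97%) and 55th of 77 in Sed BAT (median 1.32%).

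**Figure D2:**
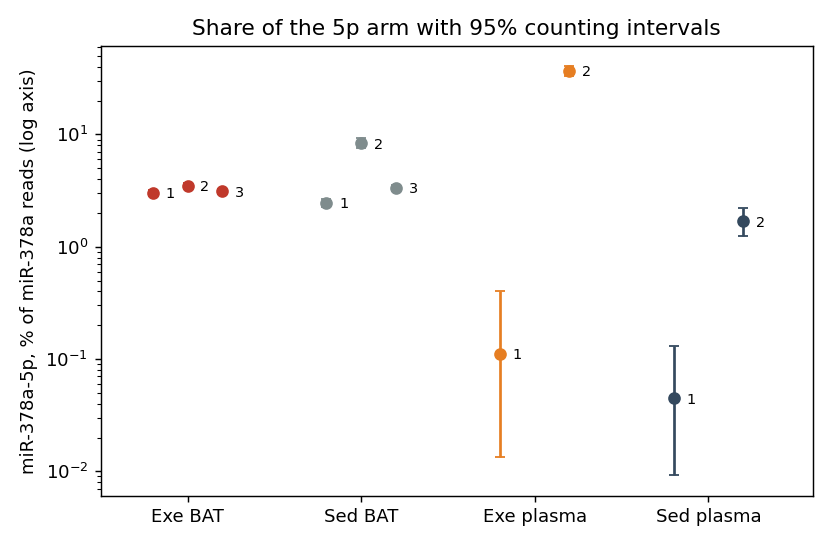
Share of the 5p arm in all miR-378a reads (%, log axis) per library, with exact 95% counting intervals and replicate numbers. Of the BAT points, 5 lie between 2.45% and 3.50%, Sed BAT replicate 2 lies at 8.34%, and plasma points run between 0.0448% and 36.8%.

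The relatives were also low in Sed replicate 2 of the BAT vesicles. Reads of miR-378c were 216, 360 and 431 in Exe, against 249, 52 and 256 in Sed, and those of miR-378b were 157, 260 and 265 in Exe, against 148, 76 and 154 in Sed. Both had their fewest reads there. Within Exe, miR-378c did not follow miR-378a-3p: its shares of miRNA reads were 0.185%, 0.227% and 0.250% in replicates 1 to 3, where those of miR-378a-3p were 27.1%, 21.3% and 20.7%. As a share of miR-378a-3p reads, miR-378c stayed between 0.684% and 1.37% in all 6 BAT libraries while miR-378a-3p itself ranged over 3804 to 35733 reads. For miR-378b that share was 0.497% to 0.767% in 5 libraries and 2.0% in Sed replicate 2. Log2 fold changes were 0.69 ± 0.50 for miR-378c (edgeR, SE, adjusted p = 0.331) and 0.70 ± 0.32 for miR-378b (adjusted p = 0.137). Without Sed replicate 2 they were 0.31 for miR-378c (adjusted p = 0.426) and 0.50 for miR-378b (adjusted p = 0.202). Without Sed replicate 3 they were 1.30 for miR-378c (adjusted p = 0.105) and 1.10 for miR-378b, which then passed (adjusted p = 0.0423). Too few reads were found for a test of miR-378d, with 3, 1 and 5 in Exe and 3, 1 and 1 in Sed. Whether reads of miR-378a-3p were counted for its relatives was not tested.

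**Figure D3:**
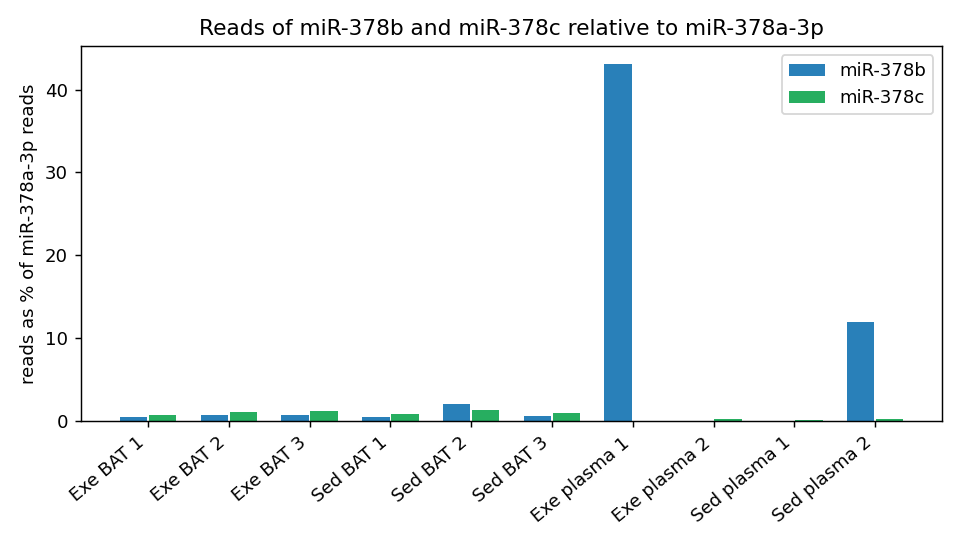
Reads of miR-378b and miR-378c as a percentage of miR-378a-3p reads in each library. Both are at or below 2.0% in all 6 BAT libraries, whereas miR-378b reaches 43.1% in Exe plasma replicate 1 and 11.9% in Sed plasma replicate 2 and has no read in the other plasma libraries.

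Plasma vesicles carried far less miR-378a-3p. It had 1798 and 468 reads in Exe plasma, against 6695 and 2743 in Sed plasma. The shares were 0.149% and 0.0265% in Exe, against 0.499% and 0.153% in Sed, so both Exe libraries lay below both Sed libraries, though Exe replicate 1 was only just below Sed replicate 2. It ranked 64th by mean share in Exe (0.0876% ± 0.0864) and 27th in Sed (0.326% ± 0.245, SD, n = 2 each). Its neighbours in Sed were the muscle miR-1a-3p (0.338%) and miR-30b-5p (0.324%), and in Exe miR-100-5p (0.0882%) and miR-7a-1-3p (0.0809%), none of them apart from it beyond the spread.

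The log2 fold change in plasma was -2.90 ± 1.33 (edgeR, SE, n = 2 each, adjusted p = 0.192). No miRNA passed in that fit (0.00% of 182), in which 33.0% had an unadjusted p under 0.05. With other tools 31.3% (DESeq2) and 22.0% (limma-voom) passed, and this miRNA was not among them. Groups did not overlap for 59.3% of the 182. The value stayed below 0 with each library left out, from -4.12 to -1.26, and passed only without Sed replicate 2 (-3.68 ± 0.87, adjusted p = 0.000955), where the lone Sed library is assumed to vary like the Exe ones. Upper-quartile factors gave -3.62 and library size alone -1.89, as they moved the median of all miRNAs by -0.91 and 0.63. For the share of reads the exact permutation p was 0.333 (two-sided), the smallest that 2 against 2 can give. In the same libraries the red cell miRNAs summed to 14.1% and 15.0% of reads in Exe, against 70.1% and 52.8% in Sed (7 listed members, of which 6 were tested). Most of these reads were miR-451a, at 134144 and 232086 in Exe plasma against 936594 and 948848 in Sed plasma. The miR-486 members went the other way, with miR-486a-5p at 17010 and 14954 in Exe plasma against 2233 and 115 in Sed plasma. Counts of miR-486b-5p equal those of miR-486a-5p, so the sums hold these reads under both names. With miR-451a, the main red cell miRNA, left out of the totals, miR-378a-3p was at -2.66 (edgeR, adjusted p = 0.246). Leaving it out changes only the scaling between libraries, and the part of red cell vesicles in the result was not tested.

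The 5p arm in plasma rested on few reads in 1 library of each group. It had 2 and 272 reads in Exe plasma, against 3 and 47 in Sed plasma. Replicate 1 of either group was thus at 2 or 3 reads out of 1209116 or 1341678 miRNA reads. In replicate 2 the second whole-number value was 269 beside the 272 reads of Exe but only 5 beside the 47 of Sed. The log2 fold change of 2.27 ± 2.69 (edgeR, SE, n = 2 each, adjusted p = 0.590) turned to -3.05 without Exe replicate 2. The 5p share of miR-378a reads was 0.111% and 36.8% in Exe plasma (exact 95% interval of the second, 33.3% to 40.3%), against 0.0448% and 1.68% in Sed plasma. Exe plasma replicates therefore differed by 36.6 points. That was the 5th largest gap among 49 hairpins with at least 20 reads in both libraries, whose median gap was 0.502 points. The group means, 18.4% ± 25.9 in Exe and 0.865% ± 1.16 in Sed (SD, n = 2 each), did not differ beyond this spread (exact permutation p = 0.667, two-sided).

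Between plasma replicates miR-378b was as uneven. Its reads numbered 775 and 0 in Exe plasma, against 0 and 327 in Sed plasma, so that in both groups a library with many reads sat beside one with none. The second whole-number value was 762 beside the 775 reads but only 19 beside the 327. A count of 0 is compatible with up to 3 reads. As a share of miR-378a-3p reads, miR-378b was 43.1% in Exe replicate 1 and 11.9% in Sed replicate 2, far above its BAT range. Replicates of miR-378c were even but low, with 1 and 1 reads in Exe plasma, against 6 and 7 in Sed plasma. Summed over libraries these are 2 and 13 reads, a ratio of shares of miRNA reads of 0.162 with an exact 95% counting interval of 0.0178 to 0.717. With TMM-scaled library sizes the ratio was 0.11 (0.0121 to 0.487). For miR-378d there was no read in Exe plasma, against 0 and 3 in Sed plasma. Intervals and limits of this kind cover counting error only.

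Set against plasma vesicles, BAT vesicles were rich in miR-378a. The 2 sources were deposited as separate tables with libraries of different depth, so source, table and any batch cannot be told apart in this comparison. In a joint edgeR fit of the raw counts of 234 miRNAs, miR-378a-3p was higher in BAT than in plasma by 6.51 ± 1.19 on the log2 scale in Exe (SE, adjusted p = 0.00141) and by 2.92 ± 0.98 in Sed (adjusted p = 0.0337). Every BAT library lay above every plasma library, as it did for 49.1% of the tested miRNAs in Exe and 48.7% in Sed, and groups did not overlap in either direction for 79.5% and 68.4%. In Sed the gap was narrow on the TMM-scaled CPM of this fit, at 17445 in BAT replicate 2 against 16036 in plasma replicate 1. As shares of miRNA reads these 2 libraries were at 3.66% and 0.499%. In Exe, 66.7% of the tested miRNAs passed (41.0% higher in BAT and 25.6% lower), and the median miRNA was at 0.90. In Sed, 42.3% passed (22.2% higher and 20.1% lower), and the median was at 1.21. A call of this kind was therefore common. The size of the Exe value stayed between 6.09 and 8.53 with any library left out, always past the threshold. The Sed value ran from 2.44 to 3.97 and missed the threshold without Sed BAT replicate 1 (adjusted p = 0.0810), Sed BAT replicate 3 (0.0890), Sed plasma replicate 1 (0.0655) or Sed plasma replicate 2 (0.160). It also missed with the second plasma values (2.69, adjusted p = 0.0828).

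For miR-378a-5p, BAT was higher than plasma by 5.32 ± 1.64 in Exe (edgeR, SE, adjusted p = 0.0160, and 10.8 without Exe plasma replicate 2, where the lone library has 2 reads) and by 5.81 ± 1.69 in Sed (adjusted p = 0.0188, and 0.0929 without Sed plasma replicate 1). Library size alone, which does not correct for the few miRNAs that fill plasma libraries, raised the median of all miRNAs by 1.53 in Exe and 2.63 in Sed and gave 8.06 and 5.43 for miR-378a-3p. Relative to the median of all miRNAs, miR-378a-3p was 5.61 higher in Exe and 1.71 higher in Sed under the main scaling, and 5.63 and 1.59 higher under library size alone.

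The relatives divided in this comparison. Summed reads of miR-378c were 1007 in Exe BAT against 2 in Exe plasma, a ratio of shares of miRNA reads of 3346 (exact 95% counting interval 924 to 27670), and 557 in Sed BAT against 13 in Sed plasma, a ratio of 345 (200.3 to 653). With the TMM-scaled library sizes of the joint fit these ratios were 1276 (352 to 10550) in Exe and 56.6 (32.9 to 107) in Sed. In Sed the log2 difference of miR-378c was 5.81 ± 1.04 (edgeR, SE, adjusted p = 0.00154). It had too few reads for the plasma fit and entered the joint fit only through its BAT counts, so this value is a description. For miR-378b the log2 difference was only 0.66 ± 2.10 in Exe (adjusted p = 0.806) and 0.78 ± 2.11 in Sed (adjusted p = 0.770). Its errors were wide, with plasma libraries of 775 or 327 reads beside libraries with none. Without Exe plasma replicate 1, miR-378b passed in Exe at 11.5 (adjusted p = 0.0171), where the Exe plasma side is a single library with no read, so the fitted size is no bound.

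**Figure D4:**
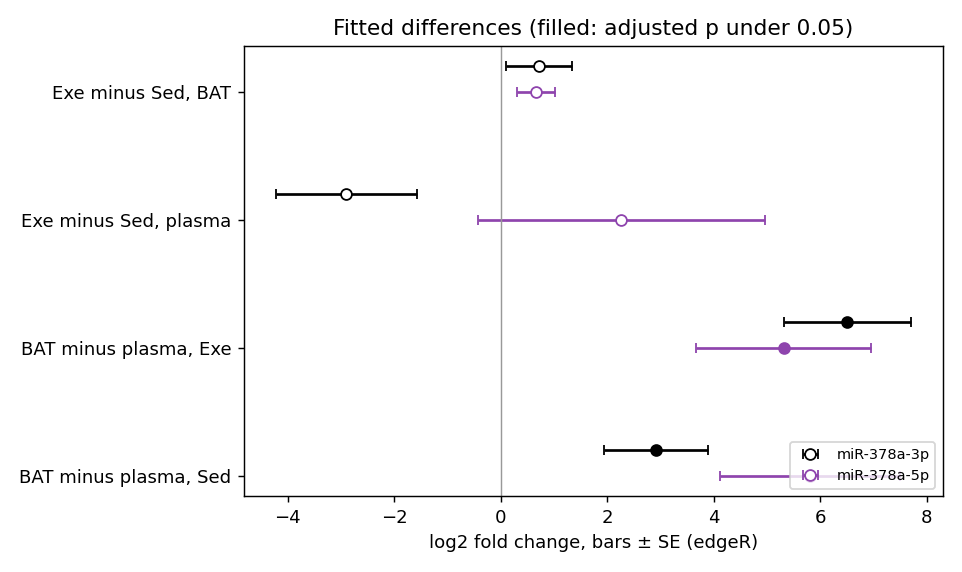
Log2 differences with their standard errors for miR-378a-3p and miR-378a-5p from the edgeR fits: Exe over Sed in BAT and in plasma, and BAT over plasma in Exe and in Sed. Only the BAT over plasma values pass an adjusted p under 0.05 (filled points), and miR-378a-3p has opposite signs in the BAT and plasma Exe contrasts (0.73 and -2.90).

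For miR-378a-3p the Exe contrast was above 0 in BAT (0.73) and below 0 in plasma (-2.90), neither past the threshold, and the difference between the 2 was tested in the joint fit. It was 3.60 ± 1.27 on the log2 scale (edgeR, SE, adjusted p = 0.0565), in a fit where 29.1% of the 234 miRNAs passed and the median was 0.57. It did not pass, though it did under 6 alternatives, among them DESeq2 (4.31, adjusted p = 0.0105), upper-quartile factors (4.96, 0.0100) and the fit without Exe plasma replicate 1 (5.58, 0.0164). For miR-378a-5p the difference was -0.49 ± 1.81 (adjusted p = 0.854). For miR-378c it was 4.09 ± 1.24 (adjusted p = 0.0349) and passed, but its plasma side is the 1 and 1 reads in Exe against 6 and 7 in Sed. With too few reads for the plasma fit, miR-378c entered the joint fit only through its BAT counts, so this call is a description.

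Pooled over Exe and Sed, the 5p share of miR-378a reads was 3.96% ± 2.17 in BAT (SD, n = 6) and 9.65% ± 18.1 in plasma (n = 4), a difference of -5.69 points (exact permutation p = 0.705, two-sided). Its sign rests on Exe plasma replicate 2. Without that library BAT was at 3.96% and plasma at 0.613% ± 0.928 (n = 3), a difference of 3.35 points. No test is given for it, since the library left out is the one that goes against that direction.

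Across the 6 BAT libraries the level of miR-378a-3p was set beside that of the other 74 miRNAs with a mean of at least 100 reads, by Pearson r of log2(CPM + 1). The libraries share depth and scaling, so r is given as a description. The 5 highest were miR-22-3p (0.973), miR-378c (0.965), miR-24-3p (0.940), miR-378a-5p (0.930) and miR-378b (0.897), so that all 3 relatives by hairpin or sequence with enough reads were among them. The median over the 74 was 0.0682. Most of these values rested on Sed replicate 2: without it, r over 5 libraries was 0.419 for miR-22-3p, 0.295 for miR-378c, 0.0899 for miR-24-3p and 0.545 for miR-378b, whereas miR-378a-5p stayed at 0.879. In Sed replicate 2 the largest departure below the other BAT libraries among 75 miRNAs was that of miR-378a-3p (-2.98 on the log2 CPM scale), followed by miR-378c (-2.57), miR-6538 (-2.37) and miR-22-3p (-1.65).

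The lowest r belonged to let-7d-5p (-0.912), miR-365-3p (-0.822) and miR-1a-3p (-0.779), and without Sed replicate 2 they were at -0.558, -0.520 and -0.557. The muscle miRNA miR-1a-3p had 754, 1071 and 752 reads in Exe BAT, against 2159, 3200 and 1405 in Sed BAT. The groups did not overlap, which held for 44.2% of the 199 tested miRNAs. Its log2 fold change of -1.47 ± 0.30 (edgeR, SE, adjusted p = 0.0107) passed, unlike that of miR-378a-3p. For miR-22-3p the fold change was 0.48 ± 0.43 (adjusted p = 0.431), with 15297, 23446 and 24361 reads in Exe against 18041, 6422 and 16588 in Sed.

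**Figure D5:**
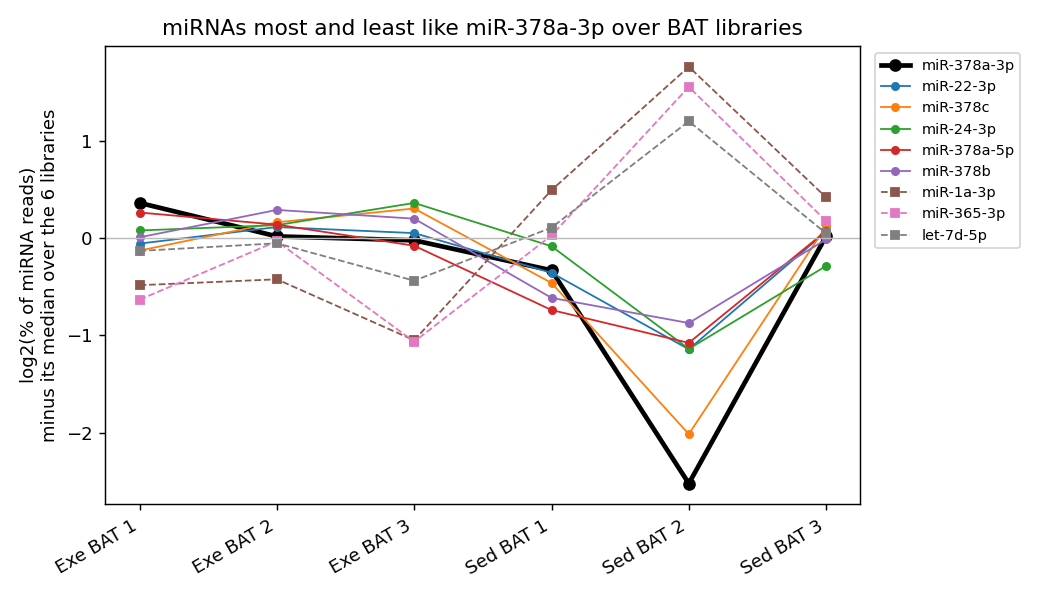
Log2 share of miRNA reads in the 6 BAT libraries, relative to each miRNA's median over them, for miR-378a-3p (black) and the miRNAs with the highest (solid lines) and the lowest (dashed lines) Pearson r to it. The dip in Sed replicate 2 is shared by miR-22-3p, miR-378c and miR-24-3p, while let-7d-5p, miR-365-3p and miR-1a-3p are high there.

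Other miRNAs known from brown fat were counted in the same BAT fit, beside a median of -0.06 over all 199 miRNAs, of which 9.55% were higher and 13.1% lower. All lists here were matched by hairpin name, so either arm of a listed hairpin counts as a member, whichever arm is known for the role. Of 18 tested arms of hairpins known to promote brown fat, 6 were higher in Exe and 1 lower, with a median of 0.73. Those higher were miR-193b-3p (1.17) and miR-193a-5p (1.43), whose clusters are known for brown adipocyte commitment in mice, and miR-455-3p (1.57), miR-30c-1-3p (1.94), miR-328-3p (1.26) and miR-26a-2-3p (2.01). The lower one was miR-32-5p (-1.35), known in mice to raise brown fat FGF21. Of the 6 higher, miR-193b-3p averaged 2196 reads per BAT library and miR-328-3p 361, while the rest averaged only 8.5 to 20.2. The rest are the less abundant arms of their hairpins, and the more abundant arms did not pass. Those were miR-193a-3p, miR-455-5p (-0.12), miR-30c-5p and miR-26a-5p, so the count of 6 leans on minor arms. The 3 most abundant that did not pass were miR-26a-5p at -0.14, miR-30b-5p at 0.55 and miR-30c-5p at 0.90. Next by mean reads came 2 that were below 0 without passing. They were miR-365-3p at -1.08 (edgeR, adjusted p = 0.0547) and miR-193a-3p at -0.69 (adjusted p = 0.376), the more abundant arm of the miR-193a hairpin. Of 16 tested arms of hairpins known to restrain brown fat, none was higher and 2 were lower, miR-34a-5p (-1.05) and let-7i-5p (-1.01), with a median of 0.05. That count of lower members is near the 13.1% over all miRNAs.

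Like miR-378a, some other miRNAs are carried within protein-coding genes, here metabolic genes and a myosin gene. Of 5 tested miRNAs of that kind, none passed in either direction, beside 22.6% over all miRNAs, with a median of -0.42. They were miR-103-3p (0.15) and miR-107-3p (0.47), from introns of pantothenate kinase genes, miR-107-5p (-0.87), miR-499-5p (-0.42), from a myosin gene, and miR-33-5p (-0.66), from the gene of the sterol regulator SREBP-2. Whether any of them differed from miR-378a-3p was not tested. Of 13 tested adipocyte miRNAs, 2 were lower, miR-30e-5p (-0.94) and miR-148a-3p (-1.29), and none was higher, beside 13.1% lower over all miRNAs, with a median of -0.08. The abundant miR-143-3p (0.03) and miR-30a-5p (-0.70) did not pass.

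Markers of other sources were measured in the same BAT libraries. The muscle miRNAs summed to 2.99%, 3.64% and 2.56% of reads in Exe, against 3.13%, 5.87% and 3.37% in Sed, highest in Sed replicate 2 where miR-378a-3p was lowest. Of 6 tested, 2 were lower in Exe (miR-1a-3p at -1.47 and miR-1b-5p at -1.59), beside 13.1% over all miRNAs. The others did not pass, with miR-133a-3p at 0.46, miR-206-3p at 0.19, miR-133b-3p at 0.71 and miR-499-5p at -0.42. The members differed in Sed replicate 2 as well: miR-1a-3p was 1.79 above the median of the other BAT libraries on the log2 CPM scale, and miR-133a-3p was at -0.40. Red cell miRNAs summed to 3.50%, 3.57% and 7.19% in Exe, against 6.22%, 4.03% and 3.50% in Sed, with 1 of 6 lower (miR-486b-3p at -1.13). These sums hold the same counts under both miR-486a-5p and miR-486b-5p. Endothelial miRNAs summed to 4.96%, 8.49% and 7.32% in Exe, against 6.35%, 10.6% and 7.78% in Sed, and neither of the 2 tested passed. Of 3 tested liver miRNAs, miR-122-5p was higher in Exe (2.62, edgeR, adjusted p = 0.0493), beside 9.55% higher over all miRNAs. It rested on 88, 30 and 12 reads in Exe BAT against 13, 5 and 4 in Sed BAT, so the groups overlapped. The liver sum was 0.122% to 0.238% in Exe and 0.112% to 0.14% in Sed. Of 5 tested leukocyte miRNAs 1 was lower (miR-142a-3p at -1.19). Single members passing, as in the red cell and leukocyte lists, are to be read against the same 13.1%. The part of these sources in the miR-378a values was not tested.

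In plasma no member of any of these lists passed, as none of the 182 tested miRNAs did. The muscle sum was 0.683% and 0.564% of reads in Exe plasma, against 0.207% and 0.651% in Sed plasma, and the endothelial sum 1.77% and 1.32% in Exe, against 1.04% and 3.19% in Sed. Groups overlapped in both sums. The leukocyte sum did not overlap, at 2.48% and 2.17% in Exe plasma, against 0.211% and 0.158% in Sed plasma. Its most abundant member was miR-150-5p, at 23000 and 32729 reads in Exe plasma against 2827 and 961 in Sed plasma. Next came miR-223-3p, whose groups overlapped, at 3998 and 1666 reads in Exe plasma against 0 and 1818 in Sed plasma. The other tested members, miR-342-3p and miR-223-5p, did not overlap. Of single miRNAs in plasma, 59.3% of the 182 did not overlap either. The part of the leukocyte sum in the miR-378a-3p values was not tested.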

How the data were processed

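Small RNA sequencing libraries of vesicles were used as miRNA read counts per library, deposited by the authors in 1 table for BAT and 1 for plasma. The BAT table also holds deposited RPM values (scaled to 1000000 reads) whose library total the authors did not name, used only for implied totals. The plasma table holds a second whole number beside each count, whose making is not stated and which the authors deposited without a unit, used as an alternative. The submitters' processing notes name Bowtie 0.12.2 and the mm8 and mm9 builds. The 3 relatives' sequences were matched by name (3 of 5 names). Sequence records on chromosome 18, where Mir378a lies, were not used, so none is printed for its arms.

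Counts were fitted per table, and jointly over the 394 miRNAs listed in both, with edgeR 4.0.16 (R 4.3.3) quasi-likelihood tests, TMM factors and its default expression filter, Benjamini-Hochberg adjusted over all tested miRNAs at 0.05, SE taken as |log2 fold change| over the square root of F. The script was tested on simulated data. DESeq2 1.42.0 and limma 3.58.1 (voom) were alternatives. Percentages were compared by exact permutation tests (scipy 1.17.1) and counting intervals are exact (Clopper-Pearson, 95%). The members, gene lists and rules were chosen with earlier results of these data known. Named miRNAs are the members and relatives, the 5 highest and 3 lowest correlations and rank neighbours. Also named are list members past the threshold, with up to 3 more by mean reads, or 5 for those known to promote brown fat. Not all rank neighbours are printed. The labels do not say that same-numbered replicates are pairs, and their correlations were weak, so numbers were not used as pairs.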

Additional observations from a re-analysis of the deposited data

Results flagged for a closer look

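For miR-378c the Exe effect differed between the sources: the effect in BAT minus the effect in plasma was 4.09 on the log2 scale (edgeR interaction term, SE 1.24, adjusted p = 0.0349), from 216, 360 and 431 reads in Exe BAT against 249, 52 and 256 in Sed BAT, and 1 and 1 in Exe plasma against 6 and 7 in Sed plasma. Too low for the plasma fit, miR-378c entered the joint fit only through its BAT counts, so the call is a description. The call was lost in 6 of 10 leave-one-out fits (values 3.30 to 4.74) and with library size alone (3.0, adjusted p = 0.0584) or no filter on low counts (3.86, adjusted p = 0.0594).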

How the results depend on the processing

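The log2 fold changes of both arms in BAT kept their sign under every setting tried, and that of miR-378a-3p never passed. With each library left out in turn, miR-378a-5p in BAT ran from 0.42 to 1.20, and in plasma miR-378a-3p ran from -4.12 to -1.26 and miR-378a-5p from -3.05 to 4.39. BAT over plasma in Sed ran from 2.44 to 3.97 for miR-378a-3p, from 4.98 to 8.75 for miR-378a-5p and from -0.17 to 10.9 for miR-378b, reversed at -0.17. With the second plasma values, an alternative planned for plasma and added for this comparison after seeing the data, miR-378a-3p was at 2.69. The difference of its Exe effects between sources (3.60) ran from 2.69 to 5.58 and passed with DESeq2 (4.31), upper-quartile factors (4.96), a mean of at least 50 counts (4.23), totals without the 3 most abundant miRNAs (4.10) and totals without miR-451a (3.77, added after seeing the data). The 5p share of miR-378a reads, left-out libraries in turn, ran from -2.63 to 0.31 points in BAT, -0.754 to 35.9 in plasma and -8.89 to 3.35 for BAT minus plasma, where the mean log2 arm ratio gave the other sign (2.17). The BAT count of 45 miRNAs became 21 when means under 50 counts were left out and 16 to 56 with libraries left out. The plasma count of 0 (60 at an unadjusted p under 0.05) became 57 with DESeq2, 40 with limma-voom, 29 with a mean of at least 50 counts, 17 without a filter, 10 with library size alone, 4 with upper-quartile factors, 11 with the second plasma values and 3 to 27 with libraries left out. Fits with the replicate number as a block called 25 miRNAs in BAT and 7 in plasma. They gave 1.13 and -2.79 for miR-378a-3p and 0.81 and 0.57 for miR-378a-5p, none of them past the threshold. Same-numbered libraries correlated at -0.143 to 0.0185 in BAT and -0.0895 in plasma. With 2 plasma libraries a group, that value only mirrors the one for unlike numbers (0.0895). Whether the numbers pair libraries is not stated, and so few libraries cannot settle it. Why the fitted values moved between settings was not tested. The plasma values of miR-378a-5p, miR-378b and miR-378c rest on 0 to 7 reads in at least 1 library of each group, although plasma libraries held more miRNA reads than BAT libraries. In Exe, BAT over plasma for miR-378a-5p ran from 4.38 to 10.8 with libraries left out, past the threshold each time.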
